A study of Mus musculus with 41 samples.

Results

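The response of the spleen to C. parvum in mice without p53 was followed on 9 of the 41 microRNA (miRNA) arrays of the series. They were chosen by their labels alone, as the 5 arrays of treated and the 4 arrays of control mice of the genotype p53-/-NOS2+/+ (p53KO). All mice were of the C57BL strain. The treated group received C. parvum (C. Parvum in the labels), a bacterial preparation used to provoke inflammation, and the control group was given saline. Both groups lack p53 and keep NOS2, the enzyme that makes nitric oxide in activated macrophages. The 10 wild-type (WT, p53+/+NOS2+/+) and 10 NOS2KO (p53+/+NOS2-/-) arrays each cover 5 control and 5 treated mice. They serve below to set the p53KO response against those of mice with p53. Together with the arrays of 6 control and 6 treated p53-/-NOS2-/- mice, they also entered the normalization and the estimate of each probe's spread. Age, sex, dose, time after treatment and the p53 allele are not stated in the labels. The numbers of the control arrays are 1, 2, 4 and 5, and those of the treated arrays 1 to 5. Each array is read here as 1 mouse, after the series' design text.

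A miRNA is a short RNA that is cut from a hairpin precursor and guides Argonaute proteins to messenger RNAs, which it pairs with mainly through its seed, bases 2 to 8. miRNAs with the same seed are read as a family, since they can pair with the same sites. The spleen holds lymphocytes, granulocytes, macrophages, stromal and vessel cells and, in the mouse, red cell precursors, and several miRNAs are typical of one of these. p53, encoded by Trp53, is a tumour suppressor that raises the transcription of miR-34a, miR-192, miR-194 and miR-215 in cells under stress. Neither Trp53 nor any other protein-coding gene was measured on these arrays, so the knockout itself is not checked by them.

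The mature sequences of the families that moved are printed here so that shared seeds and near-identical members can be seen beside the values. They come from RefSeq (GRCm38.p6), with the seed in capitals. The arm shown is the commonly abundant one, since most probe names state none. The first pair are the erythroid miRNAs.
miR-451a: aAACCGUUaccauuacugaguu
miR-144-3p: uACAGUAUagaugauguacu
The next pair share a seed and rose.
miR-221-3p: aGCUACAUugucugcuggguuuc
miR-222-3p: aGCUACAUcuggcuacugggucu
The miR-181 family of lymphocytes fell on its -a probes.
miR-181a-5p: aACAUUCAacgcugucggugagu
miR-181b-5p: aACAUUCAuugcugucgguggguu
miR-181c-5p: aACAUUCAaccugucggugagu
The miR-29 family fell on its -a probes.
miR-29a-3p: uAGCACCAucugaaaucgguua
miR-29b-3p: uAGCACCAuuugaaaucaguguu
miR-29c-3p: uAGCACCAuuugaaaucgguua
In the miR-99 and miR-125 families, miR-99a, miR-100 and miR-125b fell, while miR-99b and miR-125a did not pass the test.
miR-99a-5p: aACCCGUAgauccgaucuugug
miR-100-5p: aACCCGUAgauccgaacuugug
miR-99b-5p: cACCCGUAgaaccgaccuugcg
miR-125b-5p: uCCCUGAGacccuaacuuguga
miR-125a-5p: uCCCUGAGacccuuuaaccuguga
The last 3 belong to miRNAs that p53 is known to raise.
miR-34a-5p: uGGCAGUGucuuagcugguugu
miR-192-5p: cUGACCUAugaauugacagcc
miR-215-5p: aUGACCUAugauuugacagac

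Levels are deposited log2 signals after quantile normalization between arrays, and a change is the treated mean minus the control mean on that scale. It is therefore relative to the other probes of an array, and levels of different probes are not compared. Of 637 probe rows, 324 had at least 3 values in each group and were tested, 313 were not, and 122 of the latter had no value on any of the 9 arrays. Most probe names end in -a or -p, and a miRNA named without either means its -a probe. An array gave values for 365 to 384 probes among the controls and 348 to 391 among the treated. The difference of −10.35 probes had an exact two-sided permutation p of 0.286, where the smallest p that 126 arrangements allow is 0.00794. The as-deposited array median over the 227 probes measured on all 41 arrays was 10.49 ± 0.094 (SD, n = 4) in controls and 10.15 ± 0.118 (SD, n = 5) after treatment, with an exact permutation p of 0.00794. Normalization removes that difference, so the split between rises and falls depends on the scaling. Lymphocyte miR-150 and both miR-142 probes were measured on 9 of 9 arrays. Liver miR-122a was measured on 1 of 9 by its -a probe and on 4 of 9 by its -p probe. Of striated muscle miRNAs, miR-206 was measured on 0 of 9, but miR-1 and miR-133a*-5p on 9 of 9.

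C. parvum changed a large share of the measured miRNAs in p53KO spleen. Of 324 tested probes, 94 (29%) passed limma's moderated test at a Benjamini-Hochberg adjusted p of 0.05, with 45 rises (13.9%) and 49 falls (15.1%), and the median change of all tested probes was 0.043. At an unadjusted p under 0.05 the count was 131. Of the calls, 12 rises and 10 falls exceeded 2-fold. The treated arrays lay wholly above the controls at 17 of the 45 rises, and wholly below at 31 of the 49 falls. Over all tested probes these shares were 5.86% above and 11.4% below. With the values as deposited the split was 31 rises and 68 falls around a median change of −0.15, and after median centring it was 85 rises and 31 falls around a median of 0.19. Leaving out C. parvum 1 reduced the count to 62. In bulk spleen RNA, a change in the number of cells of a type and a change in RNA per cell cannot be told apart.

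**Figure D1:**
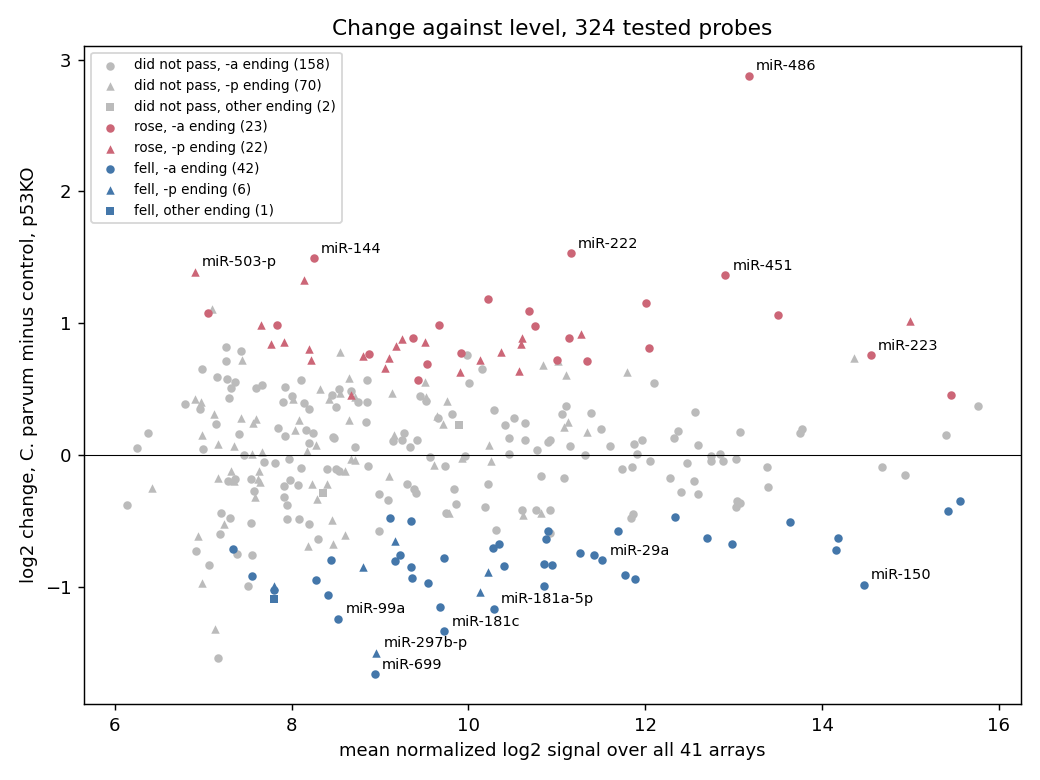
Change in p53KO spleen (treated minus control, log2, vertical axis) against mean normalized log2 level over all 41 arrays (horizontal axis) for the 324 tested probes. Red points rose, blue points fell and grey points did not pass. Circles are -a, triangles -p and squares other probes, and miR-486 at 2.88 stands above all others.

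The erythroid miRNAs rose together. miR-486, which is abundant in red cell precursors, was at 11.90, 10.71, 10.64 and 10.59 in controls 1, 2, 4 and 5. After C. parvum it was at 14.35, 14.21, 11.90, 14.21 and 14.51 on arrays 1 to 5. The treated arrays other than C. parvum 3 lay more than 2 log2 units above every control, whereas C. parvum 3 was level with control 1. The change was 2.88 ± 0.41 (SE, 95% interval 2.04 to 3.71), a fold of 7.35 (adjusted p = 4.36e-06, limma), the largest of the 324. Without C. parvum 3 it was 3.37. The -p probe of miR-486 also rose, by 1.33 ± 0.32 (adjusted p = 0.00267).

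miR-451, which matures by Argonaute-2 cleavage without Dicer and is needed for red cell formation, was at 12.63, 11.80, 12.09 and 11.43 in the controls. It was at 13.82, 13.10, 12.49, 13.30 and 14.04 after treatment. Here too C. parvum 3 fell within the control range, and the other 4 treated arrays lay above it. The change was 1.36 ± 0.35 (SE), a fold of 2.57 (adjusted p = 0.00474). miR-144, which lies within 10 kb of miR-451a in the mouse genome, went from 6.70 ± 0.93 (SD, n = 4) to 8.19 ± 1.22 (SD, n = 5), a change of 1.49 ± 0.41 (SE, adjusted p = 0.0068). It was a dim probe whose groups overlapped, with control 1 at 7.99 and treated arrays 2 and 3 at 7.53 and 6.58. When only the 9 arrays compared entered the fit, miR-144 did not pass (adjusted p = 0.0899). It did not pass either when these arrays were both normalized and fitted alone (1.75, adjusted p = 0.0848). All 3 tested -a probes of the erythroid list rose, with a median change of 1.49 against 0.043 over all probes. Over all 223 tested -a probes 10.3% rose and 18.8% fell, which is the background for the counts of this and later lists. The mean level of the list ran from 9.30 to 10.84 on the control arrays and from 10.32 to 12.74 on the treated arrays.

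**Figure D2:**
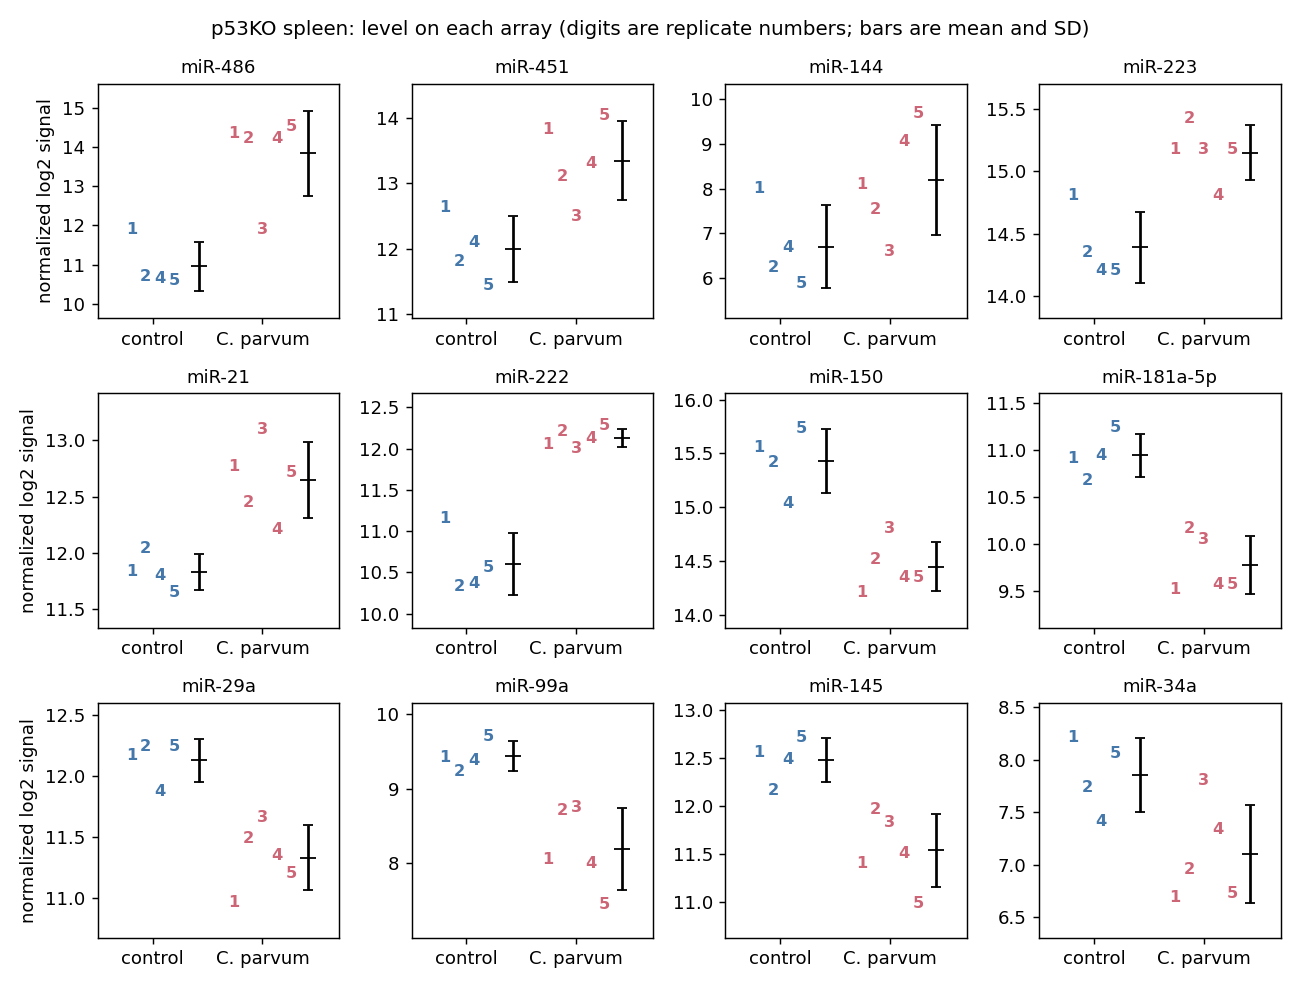
Normalized log2 signal (vertical axis) of 12 miRNAs on each p53KO array, control in blue and C. parvum in red. Digits are the replicate numbers, and bars give the mean and SD. In the miR-486 panel, C. parvum 3 and control 1 both stand at 11.90.

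Among miRNAs of granulocytes, macrophages and inflammation, miR-223 and miR-21 rose. miR-223, highly expressed in granulocytes and monocytes, was at 14.80, 14.35, 14.21 and 14.21 in controls and at 15.17, 15.42, 15.17, 14.80 and 15.17 after treatment. Only C. parvum 4 touched the control range, at the level of control 1. The change was 0.76 ± 0.20 (SE), a fold of 1.69 (adjusted p = 0.0048). miR-21, induced by inflammatory signals in many tissues, was at 11.83, 12.04, 11.80 and 11.65 in controls and at 12.77, 12.45, 13.10, 12.21 and 12.72 after treatment, with no overlap. It rose by 0.81 ± 0.22 (adjusted p = 0.00566). C. parvum 3, the array with the least miR-486 among the treated, had the most miR-21. With the values as deposited, miR-21 did not pass (0.58, adjusted p = 0.078).

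The rest of these lists did not follow. miR-155 and miR-146, both induced by NF-kB in macrophages, gave −0.37 ± 0.24 (adjusted p = 0.26) and 0.17 ± 0.17 (adjusted p = 0.508). Of 8 tested inflammation probes, 2 rose (miR-21 and miR-9-3-5p), 0 fell and 6 did not pass, with a median of 0.25. miR-9-3-5p, of a miRNA induced in human monocytes by bacterial products, changed by 0.69 ± 0.24 (adjusted p = 0.0291) and lost its call without C. parvum 1 or 4 or without control 1, 2 or 4 (adjusted p 0.0508 to 0.0691). The other 5p probes of this miRNA, miR-9-1-5p, miR-9-2-5p and miR-9-5p, had too few values to be tested, so the rise rests on the miR-9-3-5p probe alone. Median centring raised the inflammation count to 5 rises, and as deposited it was 0. In the myeloid list, miR-223 rose while miR-23a and miR-24-1-3p of the miR-23, miR-27 and miR-24 clusters fell by 0.43 ± 0.15 and 0.47 ± 0.15, and miR-27a gave 0.34 ± 0.17 (adjusted p = 0.126). The median of these 4 probes was −0.04, and it was 0.23 after median centring, where miR-23a turned to 0.10 (adjusted p = 0.602). miR-23a also lost its call without C. parvum 1, control 1 or control 5 (adjusted p 0.0546 to 0.114), and miR-24-1-3p without C. parvum 5 or control 5 (0.0534 to 0.0926). Of the tested myeloid probes of other endings, miR-24-2-p rose by 0.72, while the miR-24-2 a/p probe changed by −1.10.

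miR-222 and miR-221, which are made from neighbouring hairpins and restrain the cell cycle inhibitor p27 and the receptor Kit, rose. miR-222 was at 11.15, 10.32, 10.37 and 10.56 in controls and at 12.04, 12.21, 12.01, 12.13 and 12.28 after treatment. These treated values were the tightest of the probes plotted by array, and all lay above the highest control. The change was 1.53 ± 0.25 (SE, 95% interval 1.03 to 2.03), a fold of 2.89 (adjusted p = 2.97e-05). miR-221 rose by 0.71 ± 0.21 (adjusted p = 0.0107), also without overlap, but its change as deposited was 0.37 (adjusted p = 0.197). The -p probe of miR-221 did not pass. Compared position by position without gaps, so that a shifted stretch counts as differing, the mature sequences of the pair differ at 12 of 23 positions. They agree in the seed.

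Of 7 tested -a probes of lymphoid miRNAs 5 fell, while the 1 tested -p probe, miR-181a-2-p, rose by 0.92 ± 0.26. miR-150, the abundant miRNA of mature B and T cells, was at 15.55, 15.42, 15.03 and 15.73 in controls and at 14.21, 14.51, 14.80, 14.35 and 14.35 after treatment. Every treated array lay below every control. The change was −0.99 ± 0.30 (SE), a fold of 1.98 lower (adjusted p = 0.012), and it was −0.63 after median centring (adjusted p = 0.0592). miR-181a-5p, which tunes receptor signalling in developing T cells, was at 10.92, 10.68, 10.94 and 11.25 in controls and at 9.52, 10.17, 10.05, 9.57 and 9.57 after treatment. It fell by 1.17 ± 0.20 (95% interval −1.57 to −0.77, adjusted p = 6.34e-05), with C. parvum 2 and 3 nearest to the controls.

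The other -a probes of the miR-181 family fell by similar amounts. miR-181c changed by −1.34 ± 0.24 (adjusted p = 0.000123), miR-181b-1 by −0.98 ± 0.27 and miR-181b-2 by −0.91 ± 0.19, and the groups of each were apart. miR-213, which RefSeq lists as Mir181a-1, fell by 0.76 ± 0.16. The mature sequences of miR-181a and miR-181b differ at 3 of 23 positions, so signal shared between their probes cannot be told apart from a common fall. The median of the lymphoid -a probes was −0.98, and 0 rose. The 2 that did not pass were miR-142-5p (0.01 ± 0.20) and miR-142-3p (−0.35 ± 0.35), from a precursor active in nearly all blood cells. The mean level of the list ran from 11.35 to 11.69 on the control arrays and from 10.55 to 10.98 on the treated arrays.

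**Figure D3:**
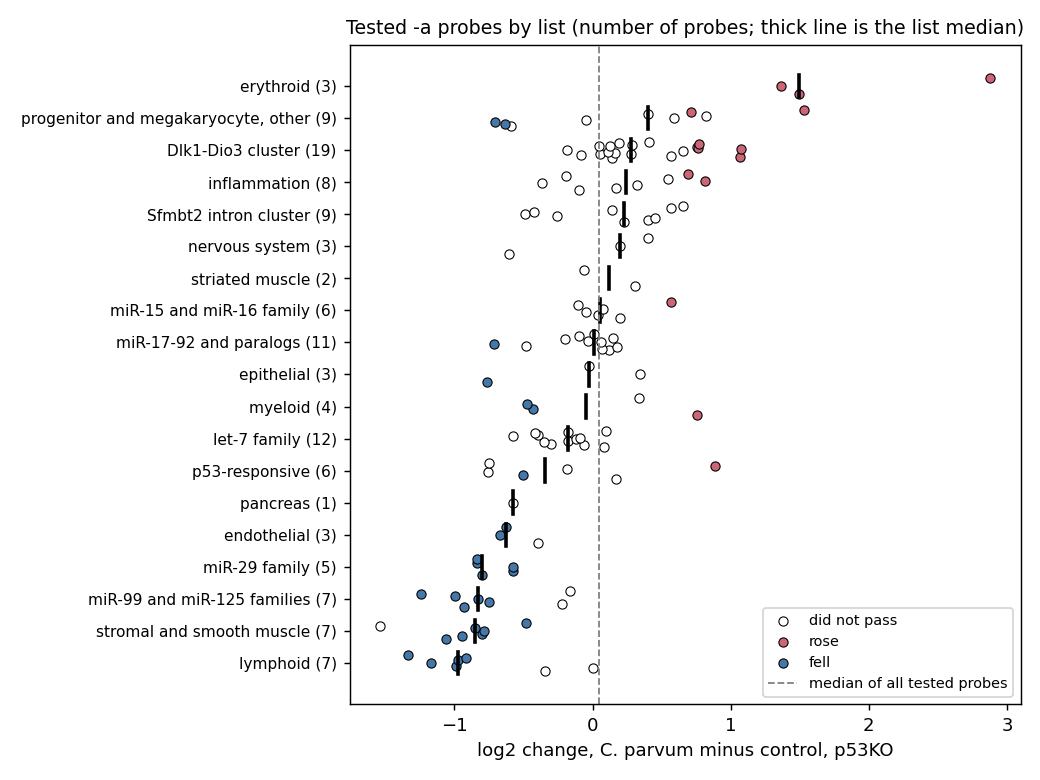
Change in p53KO spleen (log2, treated minus control, horizontal axis) of the tested -a probes of each list, with the number of probes in brackets. Thick lines are list medians and the dashed line is the median of all tested probes, 0.043. The erythroid list lies farthest to the right, and the lymphoid, stromal, miR-99 and miR-125, and miR-29 lists lie to the left.

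miR-99a, miR-100 and miR-125b, which are expressed in blood stem and progenitor cells and in megakaryocytes, fell as well. miR-99a was at 9.42, 9.23, 9.38 and 9.70 in controls and at 8.05, 8.71, 8.75, 7.99 and 7.44 after treatment, with no overlap. It fell by 1.24 ± 0.27 (SE), a fold of 2.37 (adjusted p = 0.00138). miR-100, which differs from miR-99a at 1 of 22 positions, changed by −0.93 ± 0.28 (adjusted p = 0.0124). Its level on C. parvum 2 and 3, 9.89 and 10.12, lay within the control range of 9.73 to 10.66. The 3 probes of miR-125b changed by −0.99 ± 0.35, −0.83 ± 0.30 and −0.75 ± 0.29 (adjusted p 0.0291 to 0.0473).

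The clustered partners miR-99b and miR-125a, which share the seeds of miR-99a and miR-125b, gave −0.16 ± 0.17 (adjusted p = 0.534) and −0.22 ± 0.43 (adjusted p = 0.754). Over both families 5 of 7 tested probes fell and 0 rose, with a median of −0.83. miR-100 lost its call without C. parvum 5 or control 5 (adjusted p 0.0507 to 0.0655). The miR-125b probe did so without C. parvum 1, 4 or 5 or without control 1 or 5 (0.0586 to 0.0759). miR-125b-1 and miR-125b-2 lost theirs without each of 6 arrays (0.0517 to 0.136). miR-10a and miR-10b, a pair that differs at 1 of 23 positions and is encoded in the Hox clusters, changed by −0.64 ± 0.22 and −0.71 ± 0.25 (adjusted p 0.0283 and 0.0301). Both lost their calls without C. parvum 1, 4 or 5 or without control 1 or 5 (0.0594 to 0.123). With miR-221 and miR-222, these made 2 rises and 2 falls among 9 tested probes of the other progenitor and megakaryocyte list. There miR-130a gave −0.05 ± 0.16, and a further miR-10a probe, miR-10a-1, did not pass.

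All 5 tested -a probes of the miR-29 family fell, while of 3 -p probes miR-29c-p rose and the other two did not pass. This family restrains collagens and other matrix genes, and in T cells it restrains interferon-gamma and its regulators. miR-29a was at 12.17, 12.24, 11.87 and 12.24 in controls and at 10.96, 11.48, 11.65, 11.34 and 11.20 after treatment. The groups were apart, with C. parvum 3 the highest and C. parvum 1 the lowest of the treated. The change was −0.80 ± 0.18 (SE, 95% interval −1.17 to −0.43), a fold of 1.74 lower (adjusted p = 0.00202). miR-29b and miR-29c changed by −0.84 ± 0.19 and −0.84 ± 0.21, and the copies miR-29b-1 and miR-29b-2 by −0.58 ± 0.17 and −0.58 ± 0.16. miR-29b-1 lost its call without control 1 (−0.45, adjusted p = 0.0686). miR-29a and miR-29c differ at 1 of 22 positions. Their hairpins lie in 2 separate clusters, each with a copy of miR-29b, and the -a probes of all 4 hairpins were called lower.

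Of 7 tested -a probes of stromal and smooth muscle miRNAs 6 fell, and of 3 endothelial ones 2 fell. miR-145, typical of smooth muscle, was at 12.57, 12.17, 12.49 and 12.72 in controls and at 11.40, 11.97, 11.83, 11.51 and 10.99 after treatment, without overlap. It fell by 0.94 ± 0.20 (SE), a fold of 1.92 (adjusted p = 0.0011). Its neighbour miR-143 fell by 1.06 ± 0.26 (adjusted p = 0.00308), but did not pass with missing cells set to a low value (adjusted p = 0.0752). The 3 probes of miR-199a*-3p, of a fibroblast miRNA, fell by 0.79 to 0.85, and miR-214 from the same transcript by 0.48 ± 0.17 (adjusted p = 0.0283). The -a probe of the stromal list that did not pass was miR-199a-5p, the median was −0.85, and a probe of another ending, miR-199a-2-5p, gave 0.23 ± 0.27. The mean level of the list ran from 10.20 to 10.72 on the control arrays and from 9.27 to 10.08 on the treated arrays.

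Several of these calls were lost when 1 array was left out. miR-199a*-1-3p lost its call without each of 6 arrays (adjusted p 0.0506 to 0.117). miR-199a*-2-3p lost it without C. parvum 1 or 5 or control 5 (0.06 to 0.0842), and miR-214 without C. parvum 1 or 5 or control 1, 2 or 5 (0.0592 to 0.0805). miR-126, made by endothelial cells and megakaryocytes, fell by 0.67 ± 0.18 on the probe named miR-126*-5p (adjusted p = 0.0048) and by 0.63 ± 0.23 on that named miR-126-5p (adjusted p = 0.0327). Its 3p probe had no value on any of the 9 arrays, and miR-123 of the same hairpin gave −0.40 ± 0.18 (adjusted p = 0.081), and its -p probe −0.61 ± 0.31 (adjusted p = 0.129). Neither miR-126 probe passed after median centring (adjusted p 0.122 and 0.171), and miR-126-5p also lost its call without C. parvum 1 or 4 or control 4 or 5 (0.0512 to 0.195). Of the epithelial list, miR-203 changed by −0.76 ± 0.27 and 2 other probes did not pass. Its call was lost after median centring and without each of 6 arrays (0.0525 to 0.104). Of the striated muscle, nervous system and pancreas lists, 0 of 2, 0 of 3 and 0 of 1 tested -a probes passed limma's test, and 0 had an unadjusted p under 0.05. Of their -p probes, miR-133b-p of striated muscle rose by 0.99 ± 0.29 and miR-375-p of the pancreas by 0.89 ± 0.30.

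Most tested probes of the miRNAs that p53 is known to raise did not pass in mice without it. miR-34a was at 8.21, 7.74, 7.42 and 8.06 in controls and at 6.69, 6.96, 7.81, 7.34 and 6.73 after treatment. C. parvum 3 lay among the controls and the other 4 treated arrays lay below them. The change of −0.75 ± 0.34 (SE) did not pass (adjusted p = 0.0833), but it passed without C. parvum 3 (−0.93, adjusted p = 0.0335), with array weights (−0.85, adjusted p = 0.0148) and with the replicate number as a block (−0.93, adjusted p = 0.0478). miR-192 changed by −0.50 ± 0.17 (adjusted p = 0.0272), a call lost without C. parvum 1 or 4 or control 1 or 5 (0.0535 to 0.133). miR-215, which differs from miR-192 at 3 of 21 positions, gave −0.19 ± 0.30 (adjusted p = 0.693) and, without control 2, −0.62 (adjusted p = 0.0846), while miR-194-2 gave −0.76 ± 0.39 (adjusted p = 0.13). miR-22, a p53 target in human cells, rose by 0.88 ± 0.24 (adjusted p = 0.00566), and miR-107 gave 0.17 ± 0.15. Of 6 tested -a probes, 1 rose, 1 fell and 4 did not pass, with a median of −0.34. Over all tested -a probes 10.3% rose and 18.8% fell, so these counts do not set the list apart. The changes of miR-34a, miR-192, miR-194-2 and miR-215 were negative, and those of miR-22 and miR-107 were positive.

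The let-7 and miR-15 families and the miR-17-92 cluster with its paralogs held few calls. None of 12 tested let-7 probes passed limma's test, and 0 had an unadjusted p under 0.05, with a median of −0.18. The let-7f-2 probe was the one whose groups did not overlap (−0.42 ± 0.31). Among 11 -a probes of the miR-17-92 cluster and its paralogs, which promote proliferation, miR-19b-2 was the 1 call (−0.72 ± 0.26, adjusted p = 0.0423, measured on 3 treated arrays). It lost its call without C. parvum 4 or without control 1, 4 or 5 (adjusted p 0.0512 to 0.111), and the median was 0.01. Of 2 -p probes of these miRNAs, miR-93-p rose by 0.45 ± 0.17. In the miR-15 and miR-16 family, miR-497 rose by 0.57 ± 0.18 and 5 of 6 probes did not pass. miR-497 lost its call without C. parvum 4 or 5 (0.0655 to 0.0759) and as deposited (0.39, adjusted p = 0.0836). The miR-26 family, picked out after its values were seen, fell on all 3 tested probes, with miR-26a-1 at −0.72 ± 0.15, miR-26a-2 at −0.63 ± 0.15 and miR-26b at −0.35 ± 0.12. miR-342, also picked out afterwards, is expressed in blood cells and rose by 0.45 ± 0.12, with every treated array above every control.

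Several of the largest changes lay in probes not yet described. miR-699, a candidate miRNA cloned in the mouse, was at 9.27, 9.96, 10.32 and 9.77 in controls and at 8.80, 7.40, 8.46, 8.36 and 7.79 after treatment. It was the largest fall, at −1.67 ± 0.31 (SE), a fold of 3.17 lower (adjusted p = 0.000221), and its -p probe also fell, by 0.65 ± 0.23. miR-703 fell by 1.16 ± 0.36 and lost its call without control 4 (−0.95, adjusted p = 0.055). miR-297b-p and miR-669a-p, from hairpins in an intron of Sfmbt2, fell by 1.50 ± 0.21 and 1.04 ± 0.19. With miR-669c-p they made 3 falls among the 4 tested -p probes of that cluster, with a median of −1.18. Over all tested -p probes 6.12% fell. By contrast, 0 of 9 -a probes of the cluster passed, with 2 at an unadjusted p under 0.05. miR-532-p changed by −0.995 ± 0.21 and the miR-24-2 a/p probe by −1.10 ± 0.28. miR-139 gave −1.03 ± 0.38 (adjusted p = 0.0384) and lost its call in 10 of 20 alternatives, among them the omission of each of 6 arrays (0.0635 to 0.111).

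On the rising side, miR-207 was at 9.44, 9.60, 9.47 and 9.07 in controls and at 11.22, 10.54, 9.50, 10.89 and 10.73 after treatment. Again C. parvum 3 alone lay in the control range, and the change was 1.18 ± 0.28 (adjusted p = 0.00249). miR-483, from an intron of Igf2, rose by 1.15 ± 0.31 and miR-326 by 0.99 ± 0.27. miR-503-p rose by 1.39 ± 0.36 with values on 3 control and 4 treated arrays, and lost its call as deposited (adjusted p = 0.057), with missing cells set to a low value (1.17, adjusted p = 0.149) and under the replicate block (1.22, adjusted p = 0.0591). miR-700 changed by 1.09 ± 0.36, a call lost without C. parvum 1, 4 or 5 or control 5 (0.0512 to 0.0728).

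In the imprinted Dlk1-Dio3 cluster, 4 of 19 -a probes rose, against 10.3% of all tested -a probes, 0 fell and the median was 0.28. They were miR-329 (1.06 ± 0.36), miR-485-3p (1.08 ± 0.39), miR-667 (0.77 ± 0.19) and miR-487b (0.76 ± 0.22). Of 8 -p probes 2 rose, miR-543-p by 1.02 ± 0.24 and miR-323-p by 0.83 ± 0.29. Over all tested -p probes 22.4% rose, so the -p count lies near its background. miR-329 lost its call without C. parvum 1, 4 or 5 or control 1 or 2 (0.0536 to 0.089), and miR-485-3p without C. parvum 1 or 2 (0.0508 to 0.0895).

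**Figure D4:**
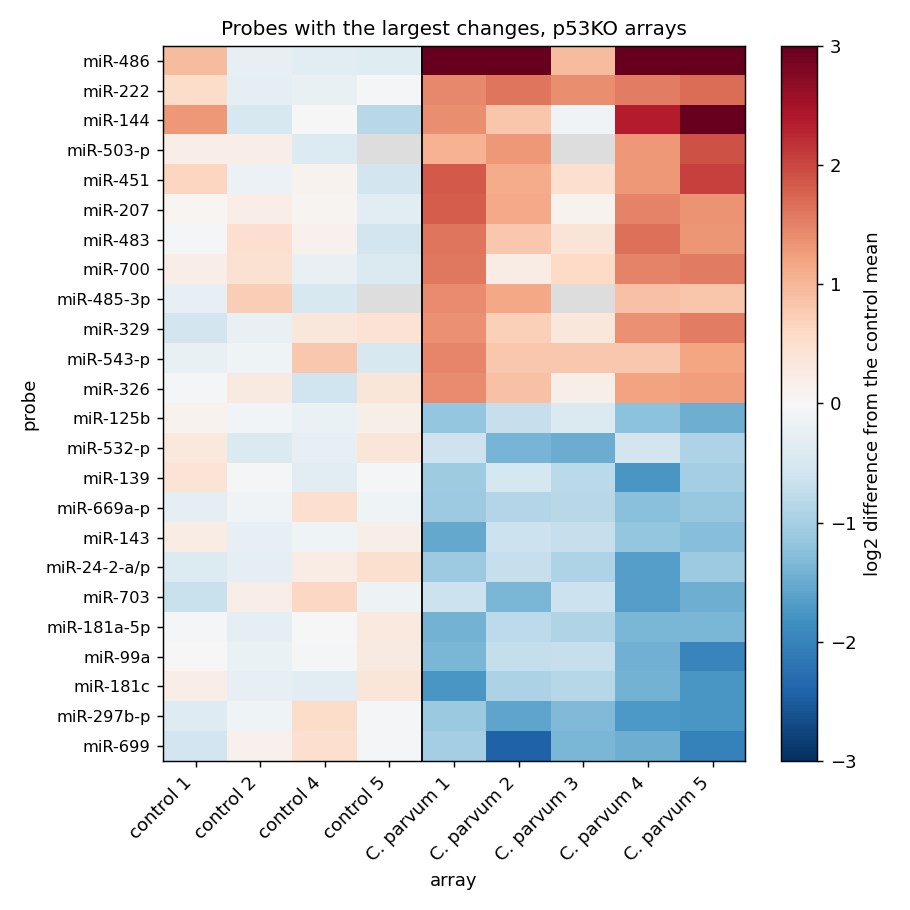
Difference of each p53KO array from the control mean (log2, colour, drawn between −3 and 3) for the 12 largest rises and 12 largest falls, 1 probe per miRNA. Grey cells hold no value. The column of C. parvum 3 is paler than those of C. parvum 1, 4 and 5 in most rows.

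Calls near the threshold also depended on the fit and the scaling. With only the 9 arrays in the fit, 13 named calls were lost (adjusted p 0.0517 to 0.103), those of miR-10a, miR-10b, miR-23a, miR-24-1-3p, miR-29b-1, miR-100, miR-125b-1, miR-126-5p, miR-144, miR-192, miR-199a*-1-3p, miR-214 and miR-497. Normalizing these arrays alone as well, in the same fit of 9 arrays, lost the same calls except that of miR-214, and also that of miR-19b-2 (0.0528 to 0.112). Median centring lost 12 (0.0505 to 0.602), which beside miR-23a, miR-150, miR-203 and both miR-126 probes were miR-10a, miR-19b-2, miR-24-1-3p, miR-125b-1, miR-139, miR-192 and miR-214. The values as deposited lost 9 (0.0525 to 0.214), with miR-9-3-5p, miR-23a, miR-139, miR-329 and miR-700 beside those given above. Missing cells at a low value lost 7 (0.054 to 0.375), which beside miR-143 and miR-503-p were miR-9-3-5p, miR-19b-2, miR-125b-1, miR-139 and miR-485-3p. The replicate block lost 5 (0.054 to 0.0824), namely miR-9-3-5p, miR-19b-2, miR-139, miR-214 and miR-503-p. Array weights lost miR-485-3p (0.0683), a minimum of 2 values per group lost miR-125b-1 (0.0536), and shrinkage with a trend lost miR-19b-2 (0.0795).

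Direction differed between the probe endings. Of 223 tested -a probes, 23 (10.3%) rose and 42 (18.8%) fell, with a median of −0.04, while of 98 -p probes 22 (22.4%) rose and 6 (6.12%) fell, with a median of 0.25. The sources used here do not say what the endings stand for. In 4 miRNAs, probes of different endings were called in opposite directions. miR-181a-5p fell and miR-181a-2-p rose, by 0.92 ± 0.26. miR-29c fell and miR-29c-p rose, by 0.66 ± 0.20. miR-24-1-3p and the miR-24-2 a/p probe fell and miR-24-2-p rose, by 0.72 ± 0.19. For miR-7 the -a probe of miR-7-2 rose (0.89 ± 0.25) and the -p probe of miR-7-1 fell (−0.85 ± 0.23). The ending therefore moves with the direction, and its part in the calls was not tested.

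Among the -a probes, called hairpins that lie together ran the same way. The -p probes were left out of this grouping, and miR-29c-p rose where the -a probes of miR-29c and its neighbour miR-29b-2 fell. By RefSeq positions, the -a probes of 89 tested genes formed 32 groups with neighbours within 10 kb. In 8 groups at least 2 members were called, and in all 8 the calls ran one way. In 7 of these every tested member was called, namely miR-144 with miR-451a, miR-221 with miR-222, miR-143 with miR-145a, miR-199a-2 with miR-214, miR-181a-1 with miR-181b-1 and both miR-29 clusters. The exception was the Dlk1-Dio3 group, with 4 of 14 members called.

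The treated arrays were not alike in the size of the response. Of the 45 rising probes, 45 were above all controls on C. parvum 1 and 5 and 43 on C. parvum 4, but 35 on C. parvum 2 and 21 of 43 measured on C. parvum 3. The mean change of these probes was 1.18, 0.70, 0.47, 1.09 and 1.22 on arrays 1 to 5. For the 49 falling probes it was −1.01, −0.67, −0.52, −0.93 and −1.09. The calls were made on these same arrays, so the values only describe them. Without C. parvum 3, 114 probes passed, among them all 94. The array did not stand out in measured probes (361) or as-deposited median (10.23).

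A further 34 probes had at least 3 treated but fewer than 3 control values, and 21 had the reverse, and none of these was tested. miR-188 was the single probe measured on every array of one group and none of the other, on 4 of 4 controls at 5.29 to 6.90 (6.23 ± 0.68, SD) and on 0 of 5 treated arrays. No probe showed the reverse pattern.

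Whether the response without p53 differed from that with it was tested as a difference of responses. None of 293 probes passed against WT by limma (0%), 23 had an unadjusted p under 0.05, and the smallest adjusted p was 0.345. None of 311 passed against NOS2KO (0%), with 15 at an unadjusted p under 0.05 and a smallest adjusted p of 0.479. The median SE of these differences was 0.337 and 0.346, so differences of that size lie within the error of a single probe. All 9 p53KO arrays had the miR-370 probe above 10 as deposited (11.44 to 12.36), which marks one of the 2 array sets of the series, and all WT arrays belong to the other. The p53KO and WT responses each lie within 1 set, so a set effect on the size of a response and the genotype cannot be told apart. The NOS2KO controls all lie in the set of the p53KO arrays, but 2 of the 5 treated NOS2KO arrays lie in the other, so that response crosses the sets. With the set as a term in the fit, 0 probes passed against either genotype. Against WT this is no check, because each genotype lies within 1 set and the term cannot change the difference. Its median was 0.0498 with and without the term.

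Intervals of single differences were wide. For miR-486 the response was 0.53 larger in p53KO than in WT (95% interval −0.61 to 1.67), for miR-223 it was 0.06 larger (−0.49 to 0.60) and for miR-29a it was 0.28 less negative (−0.23 to 0.79). miR-34a, which fell in WT by 1.12 ± 0.32, gave a difference of 0.37 (−0.56 to 1.30). For miR-215, which fell in WT by 1.25 ± 0.28, the difference was 1.06 (0.23 to 1.89, adjusted p = 0.514), and control 2 of p53KO lay far below the other controls. The smallest p against WT belonged to miR-532-p, at −0.995 in p53KO and 0.02 in WT, a difference of −1.02 (−1.61 to −0.43, adjusted p = 0.345). miR-448 (−1.05), miR-297-2 (0.90), miR-191 (−0.65) and miR-27a (−0.61) followed, each at an adjusted p of 0.514. Against NOS2KO they were miR-196a-2-p (−1.25), miR-532-p (−0.90), miR-293 (0.56), let-7b-p (−1.32) and miR-503-p (1.40), at adjusted p of 0.479 to 0.633.

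Most of the calls were shared. Of the 94, 88 were tested in WT, 86 had the same sign and 68 were called the same way, which is 72.3% of the p53KO calls and 61.8% of the 110 WT calls (34.5% of 319 tested). In NOS2KO, 92 were tested, 90 had the same sign and 59 were called alike, 62.8% of the p53KO calls and 66.3% of the 89 there (25.7% of 346 tested). No call was reversed in either. Over the probes tested in both, the median change of the p53KO rises was 0.84 in p53KO and 0.79 in WT, and that of the falls was −0.82 and −0.89. Against NOS2KO it was 0.86 and 0.75 for the rises, and −0.83 and −0.70 for the falls. The p53KO values were used to choose these probes and the others were not.

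**Figure D5:**
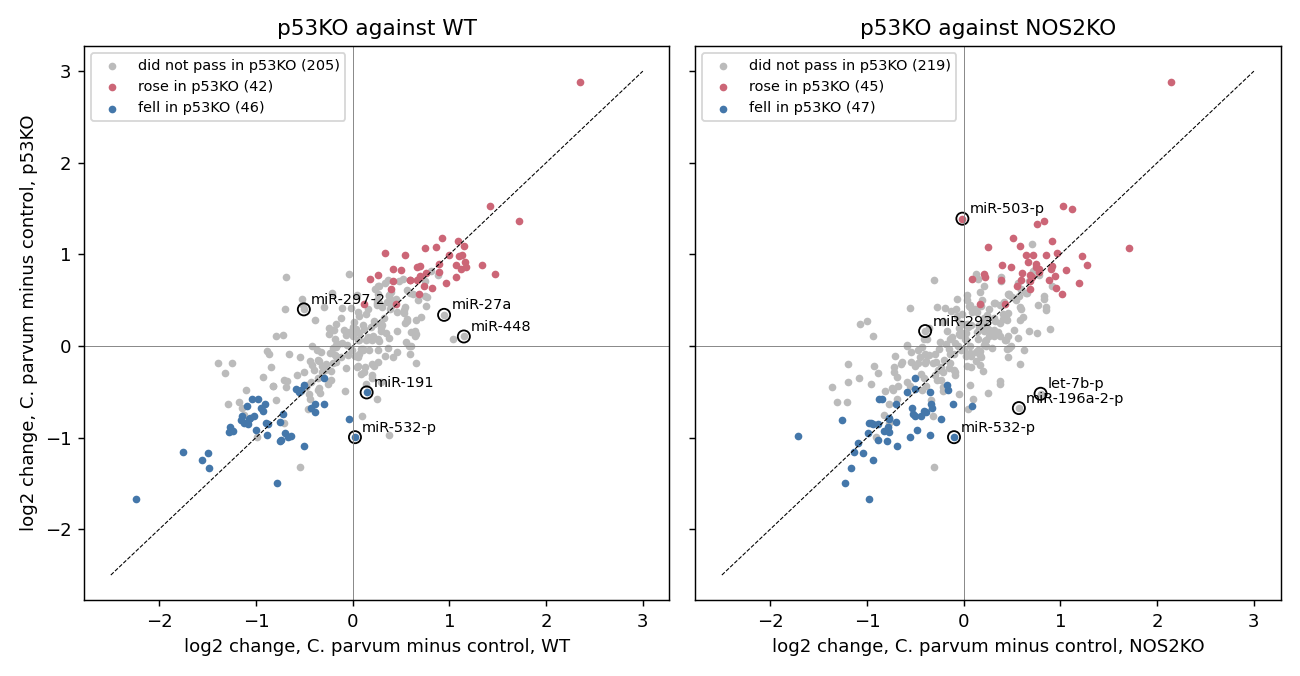
Change with C. parvum in p53KO (log2, vertical axis) against that in WT (left) and NOS2KO (right) for the probes tested in both. Red and blue points rose or fell in p53KO, the dashed line marks equal changes, and circles mark the 5 probes with the smallest p of a difference. Most red points lie to the upper right and most blue points to the lower left.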

How the data were processed

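Spleen total RNA was converted to biotin-labelled cDNA and read on 1-channel arrays, per the labels' protocols. The authors deposited log2 values in 1 table (base inferred from the range, up to 16.9), with 40.4% of cells missing. How they were scanned, background-corrected and normalized is not stated in those sources, and probe sequences were not used here, so signal shared between near-identical miRNAs was not tested.

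Arrays were quantile-normalized from the brightest probe downwards, missing cells staying missing. The means of all 8 groups were fitted over the 41 arrays in limma (version 3.58.1, R 4.3.3), with variance moderation, adjusting p by Benjamini-Hochberg over all tested probes (threshold 0.05, at least 3 values in each group compared). Values per array were compared by exact permutation. The code was tested on simulated data. RefSeq gave 1 gene for 580 rows and 27 of 30 mature sequences sought. Deviations from the group means of same-numbered control and treated p53KO arrays were negatively correlated (−0.41 to −0.15 over 227 probes). In WT and NOS2KO these correlations ran from −0.39 to 0.30. Numbers were therefore not taken as pairs. The number of arrays limits precision.

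Named are the 12 largest rises and 12 largest falls that passed (1 probe per miRNA), every list member that passed on an -a probe, preset miRNAs, and the 5 smallest p of each response difference. Members and lists were chosen with earlier results of these data known. Alternatives changed the scaling, filter, missing cells, arrays fitted, variance model and array set.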

Additional observations from a re-analysis of the deposited data

Results flagged for a closer look

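Of 119 groups of 4 or 5 arrays examined over the named probes, 6 held an array whose gap to its nearest neighbour exceeded the 95% critical share of the group's range (0.829 for 4 arrays, 0.71 for 5), and chance gives about 1 in 20, or 6. miR-486 was flagged in both groups, with control 1 far above the other controls (11.90 against 10.71, a share of 0.907) and C. parvum 3 far below the other treated arrays (11.90 against 14.21, 0.884). miR-215 was lowest on control 2 (6.55 against 8.20, 0.921), and miR-9-3-5p was highest on control 5 (9.08 against 8.60, 0.903). On C. parvum 1, miR-126-5p (12.13 against 12.63, 0.847) and miR-181b-1 (8.51 against 9.05, 0.737) lay below the other treated arrays.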

How the results depend on the processing

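The count of 94 calls ran from 77 (the 9 arrays normalized and fitted alone) to 134 (array weights) over the alternatives that kept every p53KO array. It ran from 62 (without C. parvum 1) to 114 (without C. parvum 3) when 1 p53KO array was left out. With the replicate number as a block it was 96 (49 rises, 47 falls), and the responses differed from WT at 0 probes and from NOS2KO at 0 probes under the block. Of 57 named probes that passed, 27 passed in every alternative run, and 23 lost the call when some single array was left out. Of these, miR-23a was the 1 to turn, to 0.10 after median centring (adjusted p = 0.602). miR-215, which did not pass, ran from −0.62 (without control 2) to 0.08 (median centring). Against WT, 3 probes passed once missing cells were set to a low value of 4.86, which also raised the number of probes tested: miR-182 (3.24) and miR-218 (2.31), with no value on any treated WT array, and miR-188 (−1.38), with none on treated p53KO arrays. Against NOS2KO that setting gave 1 call, miR-188. With single arrays left out, the count against WT stayed 0 and that against NOS2KO was 0 to 1 (miR-25, −1.07, without NOS2KO C. parvum 5). The array median difference ran from −0.385 to −0.303 and that of measured probes from −16.5 to −5.75. Probes with few values, and changes below the SE of a difference, limit what these arrays show.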
